A study of Mus musculus with 2 samples.

Results

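The 5 protein-coding genes with the highest HM/MH level in E14 mouse embryonic stem cells were Slc11a1, Dyrk3, Helz2, Fermt3 and Tnfaip6. They were chosen by this level from 11242 genes for which each replicate covered 50 or more CpG sites, of 21938 protein-coding genes in all, and were ranked on the lower of the 2 replicates. HM/MH denotes a CpG with hydroxymethylcytosine (hmC) on 1 strand and methylcytosine (mC) on the other, with the plus strand written first. The level of a gene is the mean, over its CpG sites, of the percentage of calls in that CpG state, taken as deposited and without correction.

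SCoTCH-seq reads both strands of a genomic DNA fragment together and calls 1 of 9 CpG states from C, mC and hmC. It was run on E14 cells of 2 passages, called replicate 1 and replicate 2, with no treatment and no other group. E14 is an established embryonic stem cell line from a strain other than that of the reference genome, and both libraries came from cells on gelatin in serum-containing medium with LIF, a cytokine that holds these cells undifferentiated. The cell type could not be checked against marker genes, since genomic DNA and not RNA was read. Replicate 1 held 143497239 calls with a median depth of 10 calls per CpG site, and replicate 2 held 31306245 calls with a median depth of 6.

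The enzymes DNMT1 and UHRF1 restore mC on the new strand after replication, and TET enzymes oxidise mC to hmC. HM/MH can be left where a symmetrically methylated CpG has been oxidised on a single strand. The genes themselves belong to unrelated families. Slc11a1 (NRAMP1) exports divalent metals from the phagosome of macrophages, Fermt3 (kindlin-3) activates integrins in blood cells, and Tnfaip6 (TSG-6) binds hyaluronan in inflamed tissue. Dyrk3 is a dual-specificity kinase that dissolves stress granules, and Helz2 is a helicase and a coactivator of nuclear receptors.

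To show where the state lies, the 150 bases with the most HM/MH calls over both replicates were taken in each gene, outside annotated UTRs and other genes. The sequences are those of the plus strand of GRCm38.p6, and capitals mark each CpG with at least 1 HM/MH call in either replicate. Every CpG of each window was marked in this way, 4 in Slc11a1, 10 in Dyrk3, 6 in Helz2, 5 in Fermt3 and 7 in Tnfaip6.
Slc11a1 (chr1:74379330-74379479): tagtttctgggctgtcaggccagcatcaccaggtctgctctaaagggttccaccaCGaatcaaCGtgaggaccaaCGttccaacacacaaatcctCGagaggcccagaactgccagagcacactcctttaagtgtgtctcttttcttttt
Dyrk3 (chr1:131129730-131129879): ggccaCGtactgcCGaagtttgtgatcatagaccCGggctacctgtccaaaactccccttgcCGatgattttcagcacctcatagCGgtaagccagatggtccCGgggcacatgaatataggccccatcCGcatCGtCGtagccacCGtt
Helz2 (chr2:181230061-181230210): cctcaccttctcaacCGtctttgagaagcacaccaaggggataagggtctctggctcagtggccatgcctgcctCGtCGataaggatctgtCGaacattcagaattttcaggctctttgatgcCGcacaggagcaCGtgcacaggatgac
Fermt3 (chr19:7018065-7018214): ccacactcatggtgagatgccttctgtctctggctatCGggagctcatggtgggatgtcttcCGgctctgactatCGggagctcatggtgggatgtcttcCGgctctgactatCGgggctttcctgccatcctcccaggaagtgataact
Tnfaip6 (chr2:52050842-52050991): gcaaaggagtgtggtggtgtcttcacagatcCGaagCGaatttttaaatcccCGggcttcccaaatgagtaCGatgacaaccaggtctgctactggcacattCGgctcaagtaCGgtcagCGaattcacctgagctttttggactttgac
The Slc11a1 window lies in an intron, those of Dyrk3, Helz2 and Tnfaip6 in coding exons, and that of Fermt3 in an exon of a retained-intron transcript only. In the Slc11a1 window, 7 of 45 calls in replicate 1 (15.6%) and 6 of 40 calls in replicate 2 (15%) were HM/MH. The Dyrk3 window held 12 of 75 calls (16.0%) and 7 of 47 calls (14.9%). The Fermt3 window held 7 of 40 calls (17.5%) and 8 of 29 calls (27.6%), and a stretch of 46 bases occurs in it more than once, so reads could be placed on either copy; the part of this in its level was not tested. The Helz2 window rested on replicate 1, with 11 of 56 calls (19.6%), since replicate 2 held 8 calls there. The Tnfaip6 window held the lowest levels, 10 of 111 calls (9.01%) and 6 of 69 calls (8.70%). These windows were chosen for their calls, and their levels are a description.

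The level that chose the genes is given for each replicate, and the ranking on the lower value admitted only genes high in both. Slc11a1 (ENSMUSG00000026177.11, chromosome 1, 74375195 to 74386062, plus strand) had 123 CpG sites with an HM/MH level of 7.15% in replicate 1, and 50 sites with a level of 7.24% in replicate 2. Dyrk3 (ENSMUSG00000016526.8, chromosome 1, 131127455 to 131138340, minus strand) had 6.62% over 142 sites and 6.99% over 57 sites. Helz2 (ENSMUSG00000027580.17, chromosome 2, 181227615 to 181242027, minus strand) had 6.56% over 207 sites and 6.55% over 72 sites. The median over all ranked genes was 4.14% in replicate 1 and 2.64% in replicate 2, so each level lay well above that of a typical gene, as the choice requires.

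Fermt3 (ENSMUSG00000024965.9, chromosome 19, 6998958 to 7019469, minus strand) had levels of 6.57% and 6.28%, measured at 175 and 60 sites. Tnfaip6 (ENSMUSG00000053475.5, chromosome 2, 52038009 to 52056686, plus strand) had 6.16% over 150 sites and 7.09% over 66 sites. The 5 genes together held 502 HM/MH calls of 7677 in replicate 1 and 133 of 1942 in replicate 2. The exact Clopper-Pearson interval at 95% over the calls of Slc11a1 was 5.66% to 8.96% in replicate 1 and 4.70% to 10.8% in replicate 2. Intervals of this width overlap among all 5 genes, and the order within them does not exceed the counting error. All intervals cover counting error only.

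The border of the list was narrow. Tnfaip6 entered with a lower level of 6.16%, and the next gene, Xirp1, which encodes an actin-binding protein of striated muscle, stood at 6.15% with 6.92% and 6.15% in the replicates. Bag2, a cochaperone of Hsp70, followed with 6.09% and 6.28%. The next were Wtip, a LIM-domain protein, with 5.90% and 6.38%, Nmnat1, an enzyme of NAD synthesis, with 6.22% and 5.89%, and Rtl1, an imprinted retrotransposon-derived gene, with 6.32% and 5.87%. Ranked on replicate 1 alone, Slc11a1 stood 3rd, Dyrk3 9th, Helz2 13th, Fermt3 11th and Tnfaip6 42nd. Ranked on replicate 2 alone, they stood 3rd, 8th, 12th, 21st and 6th.

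**Figure D1:**
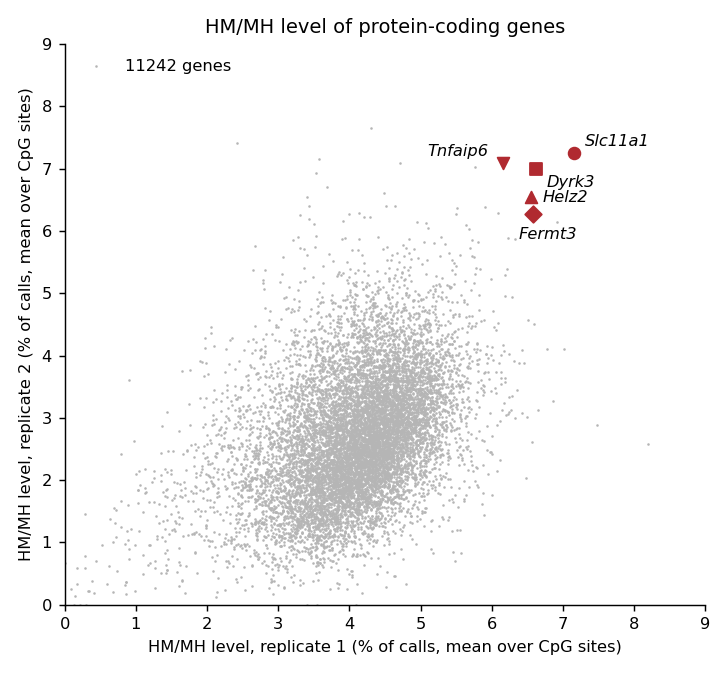
Each point is 1 of 11242 protein-coding genes, with its HM/MH level (% of calls, mean over CpG sites) in replicate 1 on the horizontal axis and in replicate 2 on the vertical axis. The 5 named genes, in red, span 6.16% to 7.15% horizontally and 6.28% to 7.24% vertically, where the medians of all genes are 4.14% and 2.64%.

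The background of this state differed between the replicates. On the synthetic duplexes added to each library, 4.51% of calls at MM sites (mC on both strands) were read as HM or MH in replicate 1 and 0.467% in replicate 2, where the state of a duplex site was taken as its most frequent call. On methylated lambda DNA, HM/MH made up 3.88% and 0.340% of calls, and on unmethylated pUC19 DNA 0.000966% and 0.00808%. The rates for MH were those of the single HM site with the strands exchanged, since no duplex site was MH by this rule. After correction with the call rates of its own replicate, Slc11a1 had 5.39% in replicate 1 and 6.66% in replicate 2, and Dyrk3 had 4.88% and 6.82%. Corrected levels were 4.30% and 6.90% for Tnfaip6, 3.81% and 6.22% for Helz2, and 3.72% and 6.07% for Fermt3, where the medians of all genes were 1.62% and 2.28%. In that order of correction, Slc11a1, Dyrk3 and Tnfaip6 ranked 1st, 2nd and 5th, while Helz2 ranked 15th and Fermt3 20th. The corrected level was lower in replicate 1 than in replicate 2 in all 5 genes.

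The other CpG states set the genes apart from each other. The MM level of Slc11a1 was 40.5% in replicate 1 and 39.5% in replicate 2, and that of Dyrk3 was 39.5% and 47.0%, against medians of 52.5% and 57.9% over all genes. Fermt3 was the most methylated, with MM at 61.6% and 65.8% and unmodified CC at 15.2% and 11.2%. Helz2 had MM at 58.6% and 52.4%, and Tnfaip6 at 41.8% and 52.2%. High HM/MH was thus found both in genes of below-median methylation and in Fermt3, at percentiles of 87.4 and 82.0 of MM.

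HC/CH, in which hmC faces an unmodified C, was also high in some of these genes. It reached 8.26% in replicate 1 and 16.6% in replicate 2 in Slc11a1, which in replicate 2, over 50 CpG sites with 314 calls, was the highest level of all ranked genes. Helz2 had 9.04% and 8.63%, at percentiles of 99.9 and 98.7 among ranked genes, and Dyrk3 had 8.19% and 6.13%, at 99.1 and 85.2. Fermt3 had 5.73% and 4.07%, at percentiles of 71.0 and 47.9, and Tnfaip6 had 5.65% and 5.96%, at 69.3 and 83.3. The medians were 4.94% and 4.15%. HH, hmC on both strands, ranged from 0.333% to 1.16% over the 5 genes in replicate 1, and its levels in replicate 2 ran from 0.208% to 0.667%. These are uncorrected. The medians of HH over all genes were 0.462% and 0.146% before correction, and 0.0121% and 0.125% after it. At the HM site of the duplexes, 2.79% of calls in replicate 1 and 0.457% in replicate 2 were read as HH.

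**Figure D2:**
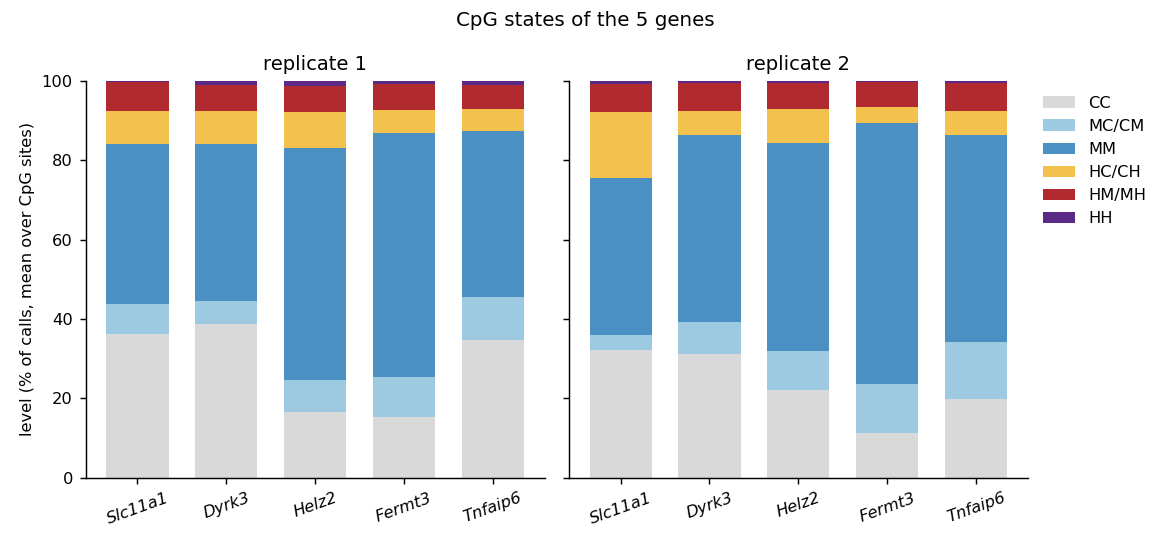
Stacked bars give the level (% of calls, mean over CpG sites) of each of the 6 groups of CpG states in the 5 genes, with replicate 1 on the left and replicate 2 on the right. HM/MH takes a similar slice of every bar, while CC ranges from 15.2% to 38.8% in replicate 1 and from 11.2% to 32.2% in replicate 2, and HC/CH is widest in Slc11a1 in replicate 2, at 16.6%.

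Among calls with a modified C on both strands (MM, HM, MH and HH), the share of HM and MH was 15% in replicate 1 and 15.6% in replicate 2 for Slc11a1. It was 13.3% and 12.7% for Dyrk3, and 12% in both replicates for Tnfaip6. Helz2, at 9.91% and 10.8%, and Fermt3, at 10.0% and 8.96%, were lower, against medians over all genes of 7.26% and 4.45%. The HM and MH calls in this share are those that chose the genes, so it is a description. It is also uncorrected. At MM sites of the synthetic duplexes, 4.51% of calls in replicate 1 and 0.467% in replicate 2 were read as HM or MH. The gene with the most similar levels of all 6 groups of states in both replicates, by Euclidean distance over 12 values each divided by its SD over genes, was Bag2 for both Dyrk3 and Tnfaip6, at distances of 2.09 and 1.92. It was Myo1a, an intestinal myosin, for Helz2, at a distance of 2.23, and Ctdp1, an RNA polymerase II phosphatase, for Fermt3, at 2.29. The nearest gene to Slc11a1, Pdyn (prodynorphin), lay at 5.34. That distance rests in part on HC/CH in replicate 2, at 16.6% in Slc11a1 and 11.5% in Pdyn, against 8.26% and 8.77% in replicate 1.

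The genes were short and held few CpGs. Their spans ran from 10868 bp in Slc11a1 to 20512 bp in Fermt3, with a median of 14413 bp against 41526 bp over all ranked genes. The reference held 175 CpGs in Slc11a1, 186 in Tnfaip6, 229 in Dyrk3, 251 in Fermt3 and 289 in Helz2, against a median of 479.5. CpG density varied, from 9.96 CpGs per kb in Tnfaip6 to 21.0 in Dyrk3, around a median of 11.9. In Helz2, 80% of the span is exon, at a percentile of 99.7, and in Tnfaip6 9.16%, at a percentile of 38.7. A mean over few sites varies more by counting alone, and the part of this in the rank was not tested: each of the 5 genes held fewer than 100 CpG sites in replicate 2, and when genes with 30 sites were admitted they ranked 1st, 4th, 6th, 7th and 10th of 14098. Soft-masked repeats held 2 of 207 sites in Helz2 and 39 of 175 in Fermt3 in replicate 1, the fewest and the most among the 5 genes. HM/MH in the repeats ran from 3.85% of 260 calls in Tnfaip6 to 8.0% of 75 calls in Dyrk3 in replicate 1. In replicate 2 it ran from 0 of 36 calls in Tnfaip6 to 3 of 25 calls (12%) in Slc11a1. Sites outside repeats held HM/MH in 6.14% to 7.47% of calls in replicate 1 and in 6.45% to 7.76% in replicate 2.

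The flanks, whose sites took no part in the choice, had lower levels than the genes they border. Within 10 kb on both sides of Slc11a1, 292 CpG sites had an HM/MH level of 2.54% in replicate 1, and 119 sites had 3.88% in replicate 2. For Dyrk3 the flanks had 4.41% and 1.97%, for Helz2 3.28% and 4.64%, for Fermt3 3.47% and 2.12%, and for Tnfaip6 3.62% and 3.92%. The medians over the flanks of 8133 genes were 3.77% and 2.65%. In replicate 2, the flanks of Slc11a1, Helz2 and Tnfaip6 lay high among those of all genes, at percentiles of 84.6, 94.3 and 85.4, but below the median in replicate 1, and those of Dyrk3 lay at 73.5 in replicate 1 and 25.9 in replicate 2. Flanks above the median in both replicates were found at 0 of the 5 genes and at 2590 of all 8133 genes (31.8%). With 5 genes, this count was not tested. Every gene exceeded its own flanks in each replicate, by 1.91 to 5.03 percentage points, where the median gene did so by 0.35 and 0.13. That difference contains the level that chose the genes and was not tested.

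In Slc11a1, Dyrk3, Fermt3 and Tnfaip6, the 2 flanks of the gene also differed in their CpG states. CC was 23.5% upstream and 54.0% downstream of Fermt3 in replicate 1, and 17.9% and 49.7% in replicate 2. For Tnfaip6 it was 48.6% and 24.2% in replicate 1, and 50.0% and 22.6% in replicate 2. The flanks of Helz2 were alike in CC, with 38.0% upstream and 37.6% downstream in replicate 1, and 25.4% and 24.7% in replicate 2. Downstream of Slc11a1, HM/MH took 1.47% of 1424 calls in replicate 1 and 3.68% of 380 calls in replicate 2. Most calls there were CC, with 78.3% and 70.0%. This flank holds Ctdsp1, a small phosphatase gene, with an HM/MH level of 1.70% and 4.70%, and the microRNA gene Mir26b. Upstream of Slc11a1, HM/MH was 4.01% and 4.0% of calls, and 2.02% and 3.55% after correction of the mean over sites. Part of Catip lies there (4.09% and 2.74% over the whole gene), and the values of Ctdsp1 are also those of the whole gene. The other flank levels given here are uncorrected. Upstream of Dyrk3, HM/MH was 2.77% of 938 calls and 0.324% of 309 calls. In replicate 1, 19 of these calls lay in the single bin between 7 and 6 kb before the start (19 of 121 calls, 15.7%), the highest bin of the Dyrk3 locus there, whereas replicate 2 had 0 of 35 calls in it. Downstream of Dyrk3 it was 5.00% and 3.78%, with no other gene annotated within 10 kb of either end.

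Levels of neighbouring genes are those of their whole spans, which can reach beyond the flank. The flanks of Helz2 hold Fndc11 (4.85% over 30 sites and 2.22% over 9 sites), the pseudogene Gm14398 and, upstream, the end of Gmeb2 (3.95% and 3.33% over the whole gene). Those of Fermt3 hold Dnajc4 (3.70% and 3.78%), Nudt22 (4.68% and 1.93%), Trpt1 (2.19% and 0%) and, upstream of its start, the end of Stip1 (3.38% and 2.94%). Trpt1 overlaps the end of Fermt3 by 89 bp. None of these neighbours reached the level of the gene beside it. For Gmeb2 and Stip1, which were ranked, the choice fixed this on the lower of the 2 replicates. The others rest on 9 to 26 sites in replicate 2. No other gene lies in the flanks of Tnfaip6.

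**Figure D3:**
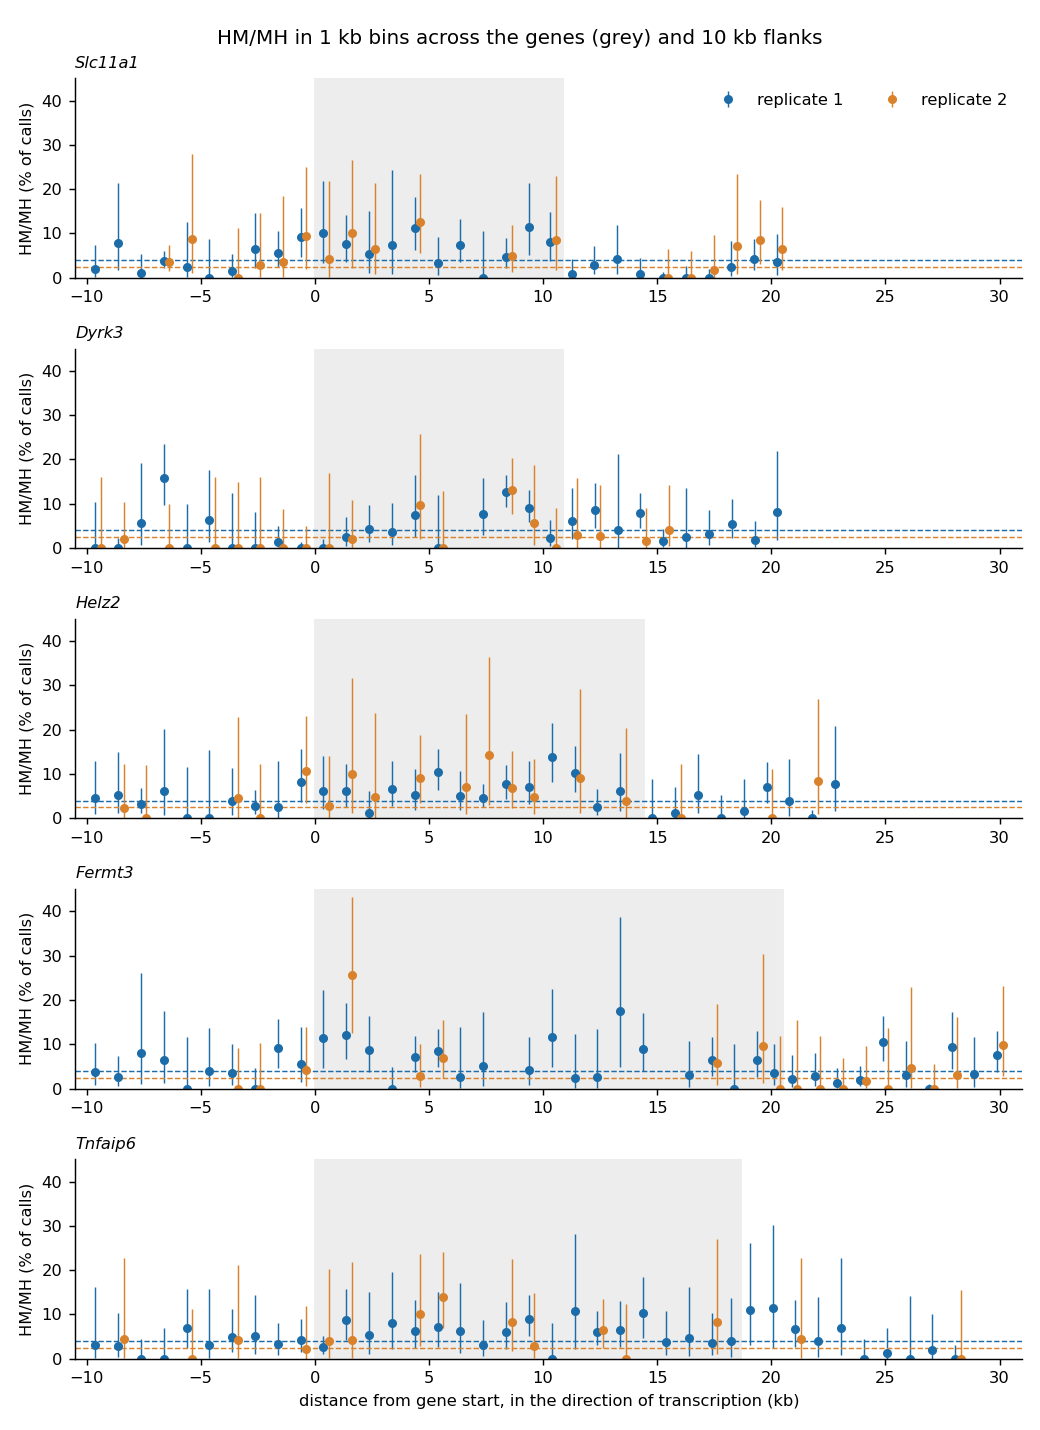
Points give HM/MH (% of all calls in a 1 kb bin, vertical axis) against the distance from the gene start in the direction of transcription (kb, horizontal axis) for bins with at least 20 calls, with exact 95% intervals. Gray marks the gene, and dashed lines mark the level of the whole genome (4.0% in replicate 1 and 2.47% in replicate 2). Bins within the genes lie above the line more often (51 of 73 and 32 of 38) than bins in the flanks (38 of 99 and 21 of 50), as the choice of the genes on these calls requires, and the start of Dyrk3 lies at 0.

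Along the loci, 51 of 73 gene bins of 1 kb with at least 20 calls (69.9%) exceeded the HM/MH level of the whole genome, 4.0% of calls, in replicate 1. In replicate 2, 32 of 38 gene bins (84.2%) exceeded its genome level of 2.47%. In the flanks, 38 of 99 bins (38.4%) and 21 of 50 bins (42%) did so. The gene bins hold the calls that chose the genes, so their excess follows from the choice and was not tested. Across the 88 bins measured in both replicates, the levels correlated with a Spearman's rho of 0.50 and a Pearson's r of 0.49. Within loci, rho was 0.57 to 0.63 in Slc11a1, Dyrk3 and Fermt3, 0.27 in Helz2 and 0.095 in Tnfaip6, over 15 to 19 bins each. These bins mix genes with flanks and share libraries, depth and base composition, and the correlation is a description.

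In Slc11a1, the highest bin shared by the replicates lay 4 to 5 kb from the start, with 14 of 124 calls (11.3%) in replicate 1 and 8 of 63 calls (12.7%) in replicate 2. This bin holds the intron window printed above. Its last bin, mostly the end of the last exon, had 9 of 111 calls (8.11%) and 3 of 35 calls (8.57%), whereas the bin from 8 to 9 kb had 4.79% and 4.82%. HM/MH in Slc11a1 was thus spread over exons and introns. In its exons outside the promoter, 33 of 560 calls (5.89%) in replicate 1 and 12 of 152 calls (7.89%) in replicate 2 were HM/MH. In its introns, 34 of 392 calls (8.67%) and 10 of 139 calls (7.19%) were HM/MH.

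In Dyrk3, the highest bin within the gene with at least 20 calls was, in both replicates, 1 at the last exon, which holds most of the coding sequence. The bin 8 to 9 kb from the start, 905 bp of it exon, had 43 of 342 calls (12.6%) in replicate 1 and 16 of 122 calls (13.1%) in replicate 2. It contains the Dyrk3 window printed above. The following bin had 25 of 278 calls (8.99%) and 2 of 36 calls (5.56%), and the last bin, which is 3′ UTR, had 3 of 137 calls (2.19%) and 0 of 39 calls. At the other end, the first kb of the gene had 0 of 174 calls and 0 of 20 calls. Coding sequence carried HM/MH in 12.5% of 487 calls and 12% of 150 calls, and the other exon sequence in 4.03% of 248 calls and 0 of 47 calls, for which the exact interval reaches 7.55%. These are uncorrected values. As means over sites, coding sequence had 12.7% and 11.9% before correction and 11.1% and 11.9% after it. The other exon sequence had 3.08% and 0% before correction and 0% in both replicates after it.

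Across the exons of Dyrk3 outside its promoter, HM/MH made up 71 of 735 calls (9.66%) in replicate 1, against 23 of 539 calls (4.27%) in its introns. Fisher's exact test gave p = 0.000212, with an adjusted p of 0.0121 over the 11192 genes tested (Benjamini-Hochberg). In replicate 2 the levels were similar, 18 of 197 calls (9.14%) against 7 of 146 calls (4.79%), but the exact test did not pass (p = 0.145, adjusted p = 0.747 over 10934 genes). In a Cochran-Mantel-Haenszel test over both replicates the odds ratio was 2.30, with an adjusted p of 0.00391. That test called 659 of 10933 genes with exons higher. The call in replicate 1 was lost in the same exact test when CpG sites needed 10 calls (adjusted p = 0.223) or had to be covered in both replicates (adjusted p = 0.640), where exons were higher by 4.18 and 3.55 percentage points, against 5.39 before. After correction, the exons had 8.54% and 8.93% and the introns 1.85% and 5.42%. Calls at neighbouring CpGs can come from the same fragment, which makes these p-values too small. The calls compared are also among those that chose Dyrk3, although the choice did not use their place in the gene. The part of the choice in this contrast was not tested.

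Higher HM/MH in exons than in introns was called in 391 genes (3.49%) in replicate 1 and in 48 genes (0.439%) in replicate 2. The opposite was called in 165 genes and in 1 gene, and with promoter sites kept the counts in replicate 1 were 370 with exons and 380 with introns higher. Among the 5 genes, Dyrk3 was called in replicate 1 and none in replicate 2, in which 4 could be tested. In replicate 2, 829 of all genes reached an unadjusted p under 0.05 in this direction. The calls compared in the 5 genes are among those that chose them. Fermt3 had 50 of 674 exon calls (7.42%) against 48 of 814 intron calls (5.90%) in replicate 1, and 16 of 172 (9.30%) against 8 of 193 (4.15%) in replicate 2, with exact adjusted p of 0.610 and 0.563. As means over sites, Fermt3 in replicate 1 had 7.37% in exons and 5.47% in introns before correction, and 4.36% and 2.73% after it. Tnfaip6 had 24 of 276 (8.70%) against 72 of 1226 (5.87%), and 12 of 155 (7.74%) against 20 of 281 (7.12%), with exact adjusted p of 0.397 and 1. Slc11a1 went the other way in replicate 1, by 2.78 percentage points in favour of introns, with an exact adjusted p of 0.436. Helz2, whose covered sites outside the promoter lay nearly all in exons, had 118 of 1772 exon calls (6.66%) against 5 of 52 intron calls (9.62%) in replicate 1. It held no intron calls in replicate 2.

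**Figure D4:**
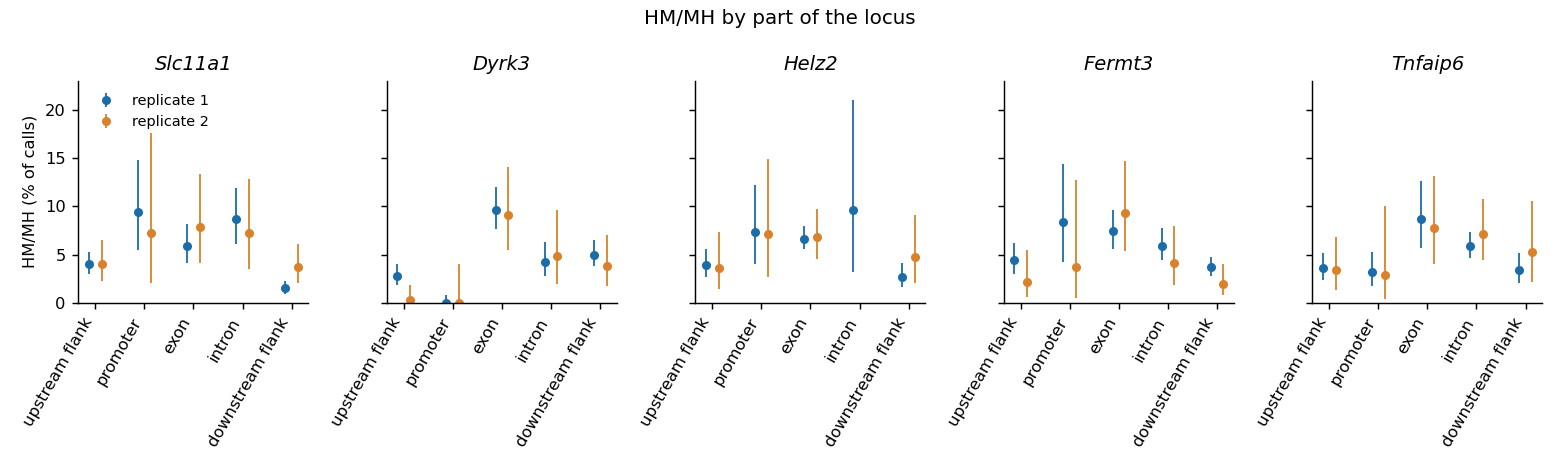
Points give HM/MH (% of calls, vertical axis) in the upstream flank, promoter (1 kb either side of the gene start), exons, introns and downstream flank of each gene in each replicate, with exact 95% intervals. The Dyrk3 promoter lies at 0 in both replicates and its exons at 9.66% and 9.14%, while the promoter of Slc11a1 lies at 9.41% and 7.27%.

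In Fermt3, the highest bin shared by the replicates lay 1 to 2 kb from the start, with 14 of 116 calls (12.1%) in replicate 1 and 9 of 35 calls (25.7%) in replicate 2. It holds the Fermt3 window printed above, with its repeated stretch, and is exon only in the retained-intron transcript. Reads could be placed on either copy of that stretch, and the part of this in the bin was not tested. When only coding exons were compared with introns, Fermt3 exceeded its introns by 0.60 and 2.45 percentage points, with exact adjusted p of 0.942 and 1. The bin 5 to 6 kb from the start, which holds coding exons, had 8.51% and 6.94%. In Tnfaip6, the highest bins of the gene differed between the replicates, with 10.7% in replicate 1 and 13.9% in replicate 2. The replicate 1 maximum is neither of the following bins. The bin 5 to 6 kb from the start, around the second exon, had 6 of 83 calls (7.23%) and 10 of 72 calls (13.9%), and the bin 12 to 13 kb from the start, which holds the window printed above, had 11 of 179 (6.15%) and 6 of 93 (6.45%).

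In Helz2, HM/MH was spread along its exons. Of 14 bins measured in replicate 1, 12 exceeded the level of the genome, with a median of 6.22%. In replicate 2 all 10 of 10 bins did, with a median of 7.0%. Some of these passed on a single call (1 of 37, 1 of 21 and 1 of 25 calls). The bins hold the calls that chose the gene, so their counts are a description. The bin 10 to 11 kb from the start reached 13.8% in replicate 1, with 16 of 116 calls, and had too few calls in replicate 2. Its coding exons carried HM/MH in 111 of 1708 calls (6.50%) and 27 of 390 calls (6.92%). After correction of the mean over sites, they had 3.58% and 6.69%.

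The promoters, here the first kb of each gene with the kb before it, fell into different states. In Dyrk3, 0 of 463 calls in replicate 1 and 0 of 91 calls in replicate 2 were HM/MH, for which the exact intervals reach 0.794% and 3.97%. Nearly all calls there were CC, with 98.1% and 95.6%. The Tnfaip6 promoter was mostly unmodified too, with CC at 73.7% and 58.0% and HM/MH at 13 of 414 calls (3.14%) and 2 of 69 calls (2.90%). In Slc11a1 the promoter was methylated, with MM at 62.4% and 56.4%, and HM/MH made up 16 of 170 calls (9.41%) and 4 of 55 calls (7.27%). The Fermt3 promoter was similar, with MM at 61.4% and 66.7% and HM/MH at 11 of 132 calls (8.33%) and 2 of 54 calls (3.70%). In Helz2, MM was 35.0% and 36.9%, CC 33.9% and 36.9%, and HM/MH 13 of 177 calls (7.34%) and 6 of 84 calls (7.14%). Promoter levels moved with the width in replicate 2. Within 500 bp of the start, HM/MH made up 4 of 33 calls in Slc11a1, 4 of 32 in Helz2, 0 of 33 in Fermt3 and 0 of 33 in Tnfaip6, and within 2 kb it made up 11 of 100 calls in Fermt3. In replicate 1, Helz2 had 2 of 60 calls within 500 bp. Most calls of Helz2 within 500 bp were CC, with 61.7% in replicate 1 and 59.4% in replicate 2. A promoter without HM/MH and an exon with some of its highest levels were thus found in the same gene, Dyrk3.

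The 250 bases upstream of the start of Dyrk3 and Slc11a1 are printed to show this contrast, in the direction of transcription (GRCm38.p6), with capitals at every CpG.
Dyrk3 (chr1:131138341-131138590, minus strand): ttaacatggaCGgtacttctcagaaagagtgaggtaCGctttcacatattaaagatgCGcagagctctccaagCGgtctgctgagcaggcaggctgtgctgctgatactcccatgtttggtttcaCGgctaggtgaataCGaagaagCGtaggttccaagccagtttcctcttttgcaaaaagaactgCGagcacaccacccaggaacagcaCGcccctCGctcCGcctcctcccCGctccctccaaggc
Slc11a1 (chr1:74374945-74375194, plus strand): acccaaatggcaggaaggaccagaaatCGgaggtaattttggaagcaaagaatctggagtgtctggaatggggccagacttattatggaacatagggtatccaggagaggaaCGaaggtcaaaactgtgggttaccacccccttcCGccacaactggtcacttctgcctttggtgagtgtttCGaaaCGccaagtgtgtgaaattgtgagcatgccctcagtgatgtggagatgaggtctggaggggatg
The Dyrk3 stretch holds 12 CpGs and the Slc11a1 stretch 5. In the Dyrk3 stretch, 139 of 141 calls in replicate 1 and 15 of 15 calls in replicate 2 were CC. In the Slc11a1 stretch, 9 of 48 and 4 of 22 calls were CC, and 2 and 3 calls were HM/MH.

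Single CpG sites were compared between the replicates. Of 254 CpG sites covered in both replicates within the 5 genes, 56 had an HM/MH call in both, 70 in replicate 1 only, 28 in replicate 2 only and 100 in neither. Whether more sites were shared than these counts give by chance was not tested. The site with the most calls was at position 131130096 of chromosome 1, in the coding part of the last exon of Dyrk3, with HM/MH in 4 of 10 calls in replicate 1 and 4 of 9 calls in replicate 2. In Slc11a1, the CpG at position 74379393 had 4 of 12 and 2 of 12 calls, and all 6 were MH, with hmC on the minus strand. In Fermt3, the CpG at 7018140 had 3 of 9 and 3 of 7 calls. This CpG lies in the repeated stretch of the Fermt3 window, where reads could be placed on either copy. In Tnfaip6 the CpG at 52046863 had 2 of 13 and 3 of 11 calls, all of them HM. These sites were picked for their calls after their values were seen, and at such depths a level at a single site is coarse.

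Over whole genes, hmC of HM/MH fell on both strands about equally. Turned by the direction of the gene, Slc11a1 had 35 calls with hmC on the sense strand and 37 on the antisense strand in replicate 1, and 13 and 10 in replicate 2. Helz2 had 63 and 65, then 15 and 13, Fermt3 had 56 and 49, then 13 and 11, and Tnfaip6 had 56 and 47, then 14 and 19. Dyrk3 was the least even in replicate 1, with 38 sense and 56 antisense calls (40.4% sense), and had 12 and 13 in replicate 2. None passed the exact binomial test against 50% (for Dyrk3 in replicate 1, p = 0.079, adjusted p = 0.689). Of all genes, 1 of 11241 (0.0089%) was called in either direction in replicate 1 and 0 of 11236 (0%) in replicate 2, and 932 and 503 reached an unadjusted p under 0.05. With intervals such as 36.7% to 60.7% for Slc11a1 in replicate 1, a moderate strand preference would not have been detectable at this depth.

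**Figure D5:**
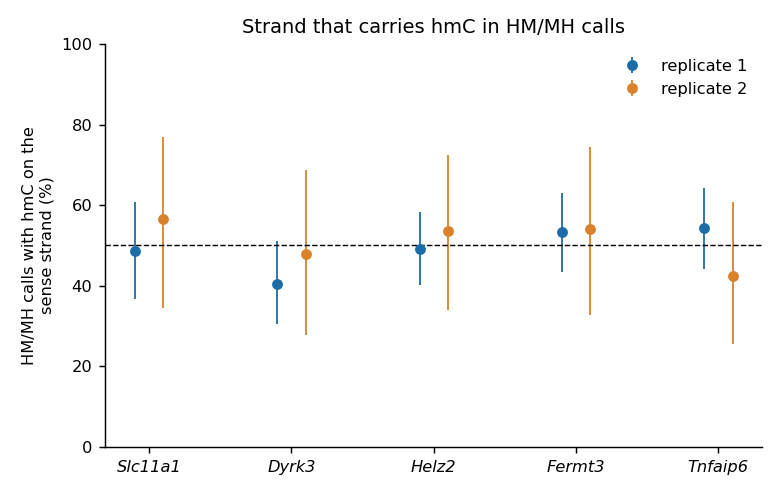
Points give the share of HM/MH calls with hmC on the sense strand (%, vertical axis) in each gene and replicate, with exact 95% intervals, and the dashed line marks 50%. All 10 intervals include 50%, and the shares lie between 40.4% and 56.5%.

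Since the 5 genes were chosen as the highest, related genes were set beside all genes, without a test. Of 16 paralogs and genes with a shared domain, 13 had enough sites, and the median of their HM/MH levels was 4.29% in replicate 1 and 2.92% in replicate 2, against 4.14% and 2.64% over all genes. In both replicates, 3 of the 13 (23.1%) lay in the highest 10% of genes, where 266 of all 11242 genes did (2.37%). They were Stab1 (5.27% and 5.12%) and Hapln3 (5.22% and 4.88%), which like Tnfaip6 contain a hyaluronan-binding link domain, and Fermt2, kindlin-2 (5.66% and 4.38%). The third kindlin, Fermt1, had 3.47% and 1.13%. Slc11a2, the other metal transporter of the family, had 3.75% and 3.26%, and Helz had 5.42% and 3.94%. Of the Dyrk kinases, Dyrk1a had 5.32% and 3.59% and Dyrk4 4.29% and 1.35%. The other link-domain genes were Stab2 (4.24% and 2.92%), Cd44 (5.07% and 2.07%), Hapln1 (3.92% and 1.45%), Hapln4 (2.30% and 1.05%) and Hapln2 (1.27% and 0.265%).

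Genes of the settings in which the 5 genes are best known were counted in the same way. Of 24 myeloid and platelet genes with enough sites, 2 (8.33%) lay in the highest 10% in both replicates, where 2.37% of all genes did. Rac2, a GTPase of blood cells (5.2% and 5.06%), was 1 of these 2. The median of the list was 4.31% and 2.34%. Of 18 interferon- and TNF-induced genes, 1 (5.56%) did so, Vcam1, an adhesion molecule of the endothelium (5.41% and 5.12%), and the median was 4.15% and 2.75%. The median of all genes was exceeded in both replicates by 6 of the 24 and by 6 of the 18 genes, and by 3653 of all 11242.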

How the data were processed

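SCoTCH-seq data of 2 libraries of E14 mESCs, 1 condition, were analysed. The authors trimmed and sorted read pairs with Cutadapt 4.6, aligned them to GRCm38, removed duplicates with Picard 3.1.1 and called a CpG state from each pair. The deposited tables list, per CpG site and library, the depth, a call count for every state and the percentage of the depth that this count makes up. CpG sites in blacklisted regions, those with multiple calling errors and those covered by under 5 calls had been removed by the authors. The deposited counts and percentages were not corrected. Serum is given as 10% in the sample labels, and a different share stands in the methods of the study.

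Computations used SciPy 1.17.1, pandas 2.3.3 and NumPy 2.4.6 under Python 3.11.15. Genes, exons and coding sequence came from GENCODE vM21, with all transcripts of a gene merged, and sequences from GRCm38.p6. Each gene was taken with 10 kb on both sides, in bins of 1 kb, and bins or parts with fewer than 20 calls were not compared. Promoters were 1 kb either side of the gene start. Correction solved the 9 linear equations given by the call rates on the synthetic duplexes, each duplex site assigned to its most frequent call and MH rates copied from HM with strands exchanged, and negative values were set to 0. It was applied to means over sites, also where the uncorrected levels of gene parts are given over summed calls. HM/MH in exons and introns was compared per gene and replicate by Fisher's exact test, two-sided, and the sense strand by an exact binomial test, two-sided, both adjusted over all genes tested (Benjamini-Hochberg, threshold 0.05). The steps were tested on simulated data.

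The members and the gene lists were chosen with earlier results of these data known. Named genes were the 5 members, the next 5 in rank, the nearest gene in its CpG states to each member, annotated genes in the flanks, the paralogs with enough sites, and the highest genes counted in each other list, of which 1 is not reported here. Replicates are 2 passages of a single line, so the agreement between them does not cover other lines. Alternatives were other weights, depths, site minimums, corrections, flank, bin and promoter widths, and each replicate alone.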

Additional observations from a re-analysis of the deposited data

How the results depend on the processing

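The mean HM/MH level of the 5 genes over both replicates was 6.72% and ranged from 6.61% to 6.83% when a replicate was left out. It was 7.29% over CpG sites covered in both replicates, 5.48% after correction with the call rates of each replicate and 5.45% with those of both. Of the 5 genes, 3 stayed among the 5 highest ranked with each replicate's call rates, 2 when genes with 30 CpG sites were ranked, 1 with sites covered in both replicates (where only Helz2, Fermt3 and Tnfaip6 kept 50 sites), and 1 when either replicate was left out. None could be ranked with a minimum of 100 sites or with 10 calls per site, since each held fewer such sites in replicate 2. At 10 calls per site, replicate 2 kept 4 sites in Slc11a1, 1 in Dyrk3, 2 in Helz2, 0 in Fermt3 and 10 in Tnfaip6. The mean of both replicates then went from 7.20% to 9.52% in Slc11a1 and from 6.81% to 3.05% in Dyrk3, while replicate 1 alone gave 7.38% over 32 sites and 6.09% over 66 sites.

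Flanks of the 5 genes averaged 3.38% HM/MH, with 3.30% to 3.46% when a replicate was left out. They averaged 3.02% over 20 kb, 3.27% without sites in other protein-coding genes, 2.05% at 10 calls per site and 2.34% after correction. Promoters averaged 4.92% over summed calls, and 3.90% after correction of means over sites. The count of genes with higher HM/MH in exons in replicate 1 was 391, and became 179 at 10 calls per site, 69 with sites in both replicates and 1291 with all hydroxymethylated states. A Cochran-Mantel-Haenszel test over both replicates together called 659 of 10933. In replicate 2 it was 48, and became 1 at 10 calls per site and 348 with all hydroxymethylated states. Among the 5 genes, the 1 called in replicate 1, Dyrk3, became 0 at 10 calls per site and 0 with sites in both replicates. For the strand test in replicate 1, 1 gene was called, 11 at 10 calls per site, 0 with sites in both replicates and 3 against the share of HM in the replicate, and none of the 5 genes was called under any of these. Of all genes, 2.37% lay in the highest 10% in both replicates, 0.854% in the highest 5%, 2.82% in the highest 10% after correction and 10.0% when a replicate was left out, since then only 1 had to pass. Among the paralogs and shared-domain genes, 3 lay in the highest 10%, 1 in the highest 5%, and 3 to 6 when a replicate was left out. Among the myeloid and platelet genes, 2 became 1 in the highest 5%, 1 after correction, and 3 to 5 when a replicate was left out. Of the interferon- and TNF-induced genes, 1 to 2 were counted when a replicate was left out.

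The causes of these shifts were not tested. No paired analysis was possible because both replicates belong to a single group. Depth in replicate 2, with a median of 6 calls per site, limits single sites and 1 kb bins.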
